A study of Mus musculus with 4 samples.

Results

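The 135 cells described here are the cells of cluster 6 in the authors' deposited annotation of myeloid cells from the atherosclerotic mouse aorta, and they make up 4.50% of the 3002 cells annotated (95% exact binomial interval 3.78 to 5.30%). They were chosen by that cluster number alone. All came from Apoe-/- mice, which lack the lipoprotein ligand apolipoprotein E and accumulate plasma cholesterol, fed a western diet for 13 weeks. The series names 6 mice, from which live CD45+ cells, meaning leukocytes carrying the surface protein CD45, were taken out of the aorta for droplet-based 3′ single-cell RNA sequencing. The 4 libraries, named 1-1, 1-2, 2-1 and 2-2 after 2 biological replicates with a pair of libraries each, form a single group with no untreated, chow-fed or Apoe-sufficient samples. The labels do not say how the mice were divided over the libraries, so the spread between libraries may be partly technical. Per the series text, the deposited cells are those of clusters that the authors kept for their macrophage or dendritic markers, although some of these clusters hold markers of other cells (summed neutrophil markers were at 28681 CPM, counts per 1000000 UMIs, in cluster 7, and stromal and endothelial markers at 15903 CPM in cluster 9). The aorta was taken as a whole rather than by plaque.

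The cell cycle runs from a gap phase into DNA synthesis (S phase), a second gap (G2) and mitosis (M). E2F transcription factors switch on replication genes before S phase, and a complex of MYBL2, FOXM1 and the MuvB proteins switches on mitotic genes later, through CHR and CCAAT elements in their promoters. Most macrophages have left the cycle, but macrophages of the arterial wall and of plaques can divide locally, with CSF1 acting through its receptor CSF1R as the main growth signal.

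Promoter sequences of 5 genes from these 2 classes are shown. Mki67, Top2a, Cdk1 and Birc5 are genes of G2 and mitosis, the class with the larger folds in the cluster. Mcm6 is a gene of replication. Each sequence is the 250 bases before the transcription start that RefSeq gives on GRCm38.p6, 5′ to 3′ on the gene's strand. Bases that follow the start were found in GENCODE transcripts of the mitotic genes shown. They were found in no GENCODE transcript of Mcm6, so its start is less certain. Capitals mark 3 kinds of motif, each searched on both strands. The CHR element was searched for as TTTGAA and, in its other known form, as TTTAAA. The CCAAT box was searched for by the letters of its name. The E2F site was searched for as TTTCCCGC and, in its other form, as TTTGGCGC. No matches of different kinds overlapped in the stretches shown.
Mki67, chr7:135716380-135716629, minus strand: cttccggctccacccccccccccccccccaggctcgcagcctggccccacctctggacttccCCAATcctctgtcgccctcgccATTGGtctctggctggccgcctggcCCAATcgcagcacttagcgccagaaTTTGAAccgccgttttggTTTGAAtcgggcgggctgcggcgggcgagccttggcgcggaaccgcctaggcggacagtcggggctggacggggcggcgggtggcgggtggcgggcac
Top2a, chr11:99024190-99024439, minus strand: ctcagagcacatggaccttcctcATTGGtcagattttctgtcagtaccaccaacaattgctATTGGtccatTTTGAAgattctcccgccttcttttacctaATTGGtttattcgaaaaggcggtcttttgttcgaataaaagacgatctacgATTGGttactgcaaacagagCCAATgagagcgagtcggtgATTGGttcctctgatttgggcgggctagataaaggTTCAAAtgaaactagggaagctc
Cdk1, chr10:69352913-69353162, minus strand: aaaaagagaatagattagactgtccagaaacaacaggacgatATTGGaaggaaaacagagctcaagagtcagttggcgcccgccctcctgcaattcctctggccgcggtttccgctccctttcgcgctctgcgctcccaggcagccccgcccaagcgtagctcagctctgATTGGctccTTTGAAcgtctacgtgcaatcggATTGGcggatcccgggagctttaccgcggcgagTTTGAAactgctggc
Birc5, chr11:117848987-117849236, plus strand: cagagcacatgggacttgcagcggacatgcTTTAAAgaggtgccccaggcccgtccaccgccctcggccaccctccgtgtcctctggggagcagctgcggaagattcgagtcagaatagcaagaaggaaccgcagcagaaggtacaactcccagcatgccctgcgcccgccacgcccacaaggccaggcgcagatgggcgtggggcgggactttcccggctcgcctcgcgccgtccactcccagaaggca
Mcm6, chr1:128359706-128359955, minus strand: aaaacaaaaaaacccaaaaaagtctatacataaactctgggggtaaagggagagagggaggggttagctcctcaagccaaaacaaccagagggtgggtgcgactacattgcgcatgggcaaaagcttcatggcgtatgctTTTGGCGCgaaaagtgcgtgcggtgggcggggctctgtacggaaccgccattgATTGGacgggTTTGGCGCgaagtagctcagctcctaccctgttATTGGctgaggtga
The Mki67 stretch held 2 CHR and 3 CCAAT matches, that of Top2a 2 and 6, that of Cdk1 2 and 3, and that of Birc5 1 and 0. Mcm6 held 2 E2F and 2 CCAAT matches and no CHR match. Over the 47 of 54 G2/M genes with an entry (52 windows), 55.8% of windows held a CHR match, 75% a CCAAT match and 46.2% both, beside 25.2%, 33.8% and 8.78% of all 32851 windows. Over the 31 of 43 S phase genes with an entry (34 windows), an E2F match was in 23.5% of windows, beside 3.85% of the G2/M windows and 1.30% of all windows. Mcm6 was thus not typical of the S phase genes in holding E2F matches. A CHR match was in 20.6% of the S phase windows. Such matches describe the letters of the sequence and not the binding of a factor.

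Cluster 6 held 7 of 236 cells in library 1-1 (2.97%, 95% interval 1.20 to 6.02%), 78 of 1231 in 1-2 (6.34%, 5.04 to 7.85%), 17 of 550 in 2-1 (3.09%, 1.81 to 4.90%) and 33 of 985 in 2-2 (3.35%, 2.32 to 4.67%). Library 1-2 gave the highest share and 78 of the 135 cells, and its interval did not overlap those of 2-1 and 2-2, while it overlapped that of its partner 1-1. The mean over libraries was 3.94% ± 1.61 (SD, n = 4). Intervals here cover counting error only. The cluster was sequenced deeply: its cells had a median of 9680 unique molecular identifiers (UMIs, each standing for 1 captured transcript; range 1460 to 28059) and 2843 genes, beside a median of 4512.5 UMIs over all cells. No barcode was shared between libraries. Library totals ran from 1698585 to 5954716 UMIs, and those of cluster 6 were 79761, 778926, 239579 and 340935 in library order, so that values of library 1-1 rest on the fewest counts. Apoe, the gene deleted in these mice, had 0, 15, 2 and 4 UMIs in cluster 6 and 472 in the other clusters. Since all samples share the genotype, and 3′ tags may lie outside the deleted part, this checks no label.

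The 4 markers that gave the cluster its name were high in every library. Levels are given as counts per 1000000 UMIs (CPM) after summing the cells of the cluster. Mki67, which encodes the Ki-67 protein coating mitotic chromosomes, stood at 690, 757, 639 and 572 CPM in libraries 1-1, 1-2, 2-1 and 2-2. Top2a, the topoisomerase that untangles sister chromatids, stood at 614, 616, 505 and 487 CPM. Birc5 (survivin, a subunit of the chromosomal passenger complex) was at 263, 352, 388 and 361 CPM. Stmn1, encoding the microtubule-destabilizing protein stathmin, was at 1204, 1175, 1423 and 909 CPM. The libraries lay close together for all 4, with no library high or low throughout. The mean of the other 13 clusters in replicates 1 and 2 was 20.2 and 15.1 CPM for Mki67, 9.04 and 8.48 CPM for Top2a, 11.9 and 7.73 CPM for Birc5, and 64.8 and 65.4 CPM for Stmn1, so every library of cluster 6 lay above both values for each gene. These genes lie on chromosomes 7 (Mki67, 135689784 to 135716361, minus strand), 11 (Top2a, 98992943 to 99024189, minus strand, and Birc5, 117849251 to 117855743, plus strand) and 4 (Stmn1, 134468320 to 134473843, plus strand) of GRCm38, the assembly named mm10 in the labels.

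**Figure D1:**
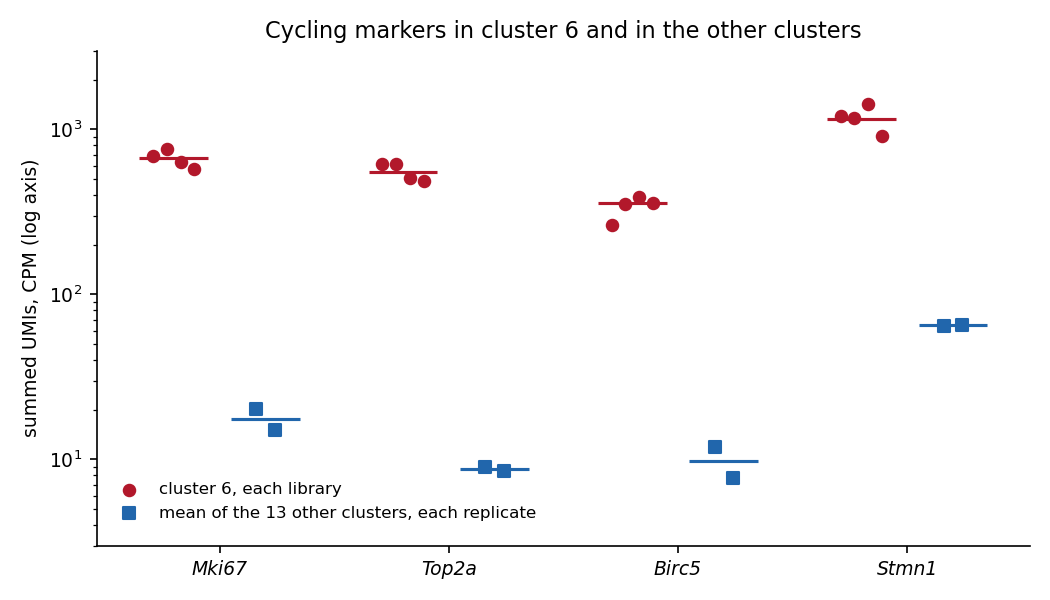
CPM (log axis) of Mki67, Top2a, Birc5 and Stmn1 in cluster 6 of each library (circles) and in the mean of the 13 other clusters of each biological replicate (squares), with lines at the means of the 2 replicates. Every circle lies above every square of the same gene, with Mki67 at 572 to 757 CPM in cluster 6 and at 15.1 and 20.2 CPM elsewhere.

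At least 1 UMI of Mki67 was seen in 108 of 135 cells (80.0%, 72.3 to 86.4%) and of Top2a in 104 (77.0%, 69.0 to 83.8%), beside 7.08% and 2.55% of the cells of other clusters. Depth differs between clusters, so cells were also thinned to 2000 UMIs each, which left out 1 cell of cluster 6. Then 74.6% of 134 cells (66.4 to 81.7%) held Mki67 or Top2a, beside 4.81% of 2223 cells elsewhere (83.0% and 8.93% before thinning). How much of the share outside cluster 6 came from free RNA in droplets was not tested. In cluster 7, a shallow cluster led by neutrophil genes, the thinned share was 4.55% (2 of 44 cells, 0.555 to 15.5%), with 81 cells left out. It was 0 of 36 cells in cluster 12 (0 to 9.74%). It was 3.14%, 5.95%, 8.31% and 4.07% in clusters 0, 1, 2 and 4. In cluster 3, a shallow cluster with a median of 834 UMIs, it was 13.0% of the 23 cells deep enough (2.78 to 33.6%), with 302 cells left out. Cells with such UMIs were therefore not limited to cluster 6: 88 of 2867 other cells (3.07%) had at least 2 UMIs of Mki67 and Top2a, of which 27 were in cluster 1, 18 in cluster 2, 14 in cluster 4, 12 in cluster 0 and 6 in cluster 3.

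Across all genes, 2951 reached 50 CPM in both replicates in either cluster 6 or the mean of the other clusters. Of these, 185 (6.27%) were at least 2-fold higher in cluster 6 in both replicates and 72 (2.44%) were at most at 0.5 times the others' mean. The cells were clustered on these same counts, so these numbers describe the cluster and carry no test. Of the 185 higher genes, 104 belonged to the 12 lists of cell cycle genes used here, which cover 286 genes of the table, and 81 did not. A single cell cycle gene was lower, the histone gene Hist1h2bc (58.2 and 60.3 CPM in replicates 1 and 2, beside 159 and 124). The median log2 fold over all 2951 genes was 0.12. The largest folds belonged to genes that other clusters barely expressed. Aspm, which organizes spindle poles, had 98 UMIs in cluster 6 and 6 in all other clusters, and stood at 87.8, 69.3, 29.2 and 88.0 CPM in the 4 libraries against 0.611 and 0.428 in the others. Casc5 (also called Knl1, the kinetochore scaffold) followed with 115 and 99.9 CPM against 1.36 and 0.143. Next came Hmmr (122 and 112 CPM), Cenpf (300.5 and 275.6 CPM) and Pbk, a mitotic kinase (90.8 and 82.7 CPM), with smaller replicate folds of 67.7, 65.6 and 65.1.

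Genes that load and run the replication machinery were higher as a group, by less than the mitotic genes. Of the 18 origin licensing and helicase genes, 6 reached 50 CPM and all 6 were higher, with a median log2 fold of 2.31 over the 18. Mcm6, a subunit of the MCM helicase that opens DNA at origins, stood at 226, 101, 142 and 132 CPM by library against 18.4 and 23.5 in the others of replicates 1 and 2. Mcm3 (276, 109, 134 and 129 CPM) and Mcm5 (201, 84.7, 87.7 and 150 CPM), of the same ring, were also highest in library 1-1. At the fork, 8 of the 8 genes with 50 CPM (of 25 listed) were higher. Pcna, the sliding clamp, was at 213, 97.6, 180 and 117 CPM against 32.7 and 35.1. Lig1, which joins Okazaki fragments, was at 288, 98.9, 163 and 132 CPM against 17.3 and 12.5. All 8 measured genes of nucleotide synthesis (of 21) were higher too. Rrm2, the regulated subunit of ribonucleotide reductase, was at 75.2, 109, 154 and 126 CPM against 5.64 and 3.47, and Tk1 (thymidine kinase) at 201, 77.0, 104 and 96.8 CPM against 3.25 and 2.94. For most of these genes library 1-1, with 7 cells, lay above the rest and library 1-2 was lowest or near it, and Rrm2 showed the reverse for library 1-1. Over the S phase list as a whole (43 genes, 17 higher of 18 with 50 CPM, none lower), the summed level was 4087, 2239, 2692 and 2663 CPM by library, against 502 and 475 in the others.

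The G2 and mitosis genes showed the larger differences. Of the 54 listed, 39 reached 50 CPM and 38 of them were higher, with a median log2 fold of 4.65 over all 54. Their summed level was 7197, 9912, 9801 and 9163 CPM by library, against 1188 and 1101 in the others. Cdk1, the kinase that drives entry into mitosis, stood at 100.3, 232, 109 and 246 CPM by library and at 7.97 and 6.98 CPM elsewhere. Ube2c, an enzyme of the anaphase promoting complex pathway that destroys mitotic cyclins, stood at 62.7, 366, 263 and 428 CPM and at 14.5 and 9.73 CPM elsewhere. Library 1-1 was lowest for both and all 4 libraries exceeded the others' means. The mitotic cyclins Ccna2 (132 and 103 CPM against 2.50 and 2.38), Ccnb1 (73.4 and 94.7 against 2.51 and 0.755) and Ccnb2 (133 and 119 against 4.84 and 3.86) were all higher in both replicates. The D-type cyclins, which respond to growth signals early in the cycle, were not called higher: Ccnd1 was at 153 and 229 CPM against 142 and 138, Ccnd2 at 82.7 and 81.0 against 81.1 and 93.2, and Ccnd3 at 86.2 and 79.2 against 56.3 and 54.4. In all, 11 of 15 measured cyclin, kinase and anaphase promoting complex genes were higher.

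Parts of the mitotic apparatus were higher with few exceptions among genes reaching 50 CPM. Among spindle, kinesin and cytokinesis genes 20 of 21 were higher (32 listed, median log2 fold 4.87), among centromere and spindle checkpoint genes 9 of 10 (25 listed, 4.36) and among condensin, cohesin and compaction genes 15 of 17 (22 listed, 2.47). Kif11, the motor that pushes spindle poles apart, was at 102 and 102 CPM against 1.77 and 1.15, and Ndc80, which binds microtubules at kinetochores, at 61.7 and 82.7 CPM against 1.31 and 1.51. The tubulin gene Tubb5 was at 1379, 1709, 1803 and 1423 CPM by library against 347 and 316. Smc4, a condensin subunit, was at 514, 524, 651 and 455 CPM against 55.9 and 53.0, and the chromatin protein gene Hmgb2 at 1066, 1247, 1778 and 1511 CPM against 188 and 195. Each library of cluster 6 exceeded both others' means for these 3 genes. Histone genes were mixed: 7 of 13 were higher and 1 lower. Hist1h1b, a linker histone made with DNA replication, stood at 436 and 296 CPM against 6.06 and 4.63, while the replication-independent variant H2afz, at 2670 and 2312 CPM against 1300 and 1239, did not reach 2-fold in both replicates. Histone genes have near-identical copies and their main transcripts lack a poly(A) tail, so counts of single histone genes are uncertain here.

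Transcripts of the regulators were sparse. Of 23 cell cycle transcription factor genes, 1 reached 50 CPM, the MuvB-associated histone binder Rbbp4, and it was higher (148 and 119 CPM against 66.7 and 58.1). Below that level, E2f1 was at 188, 33.4, 25.0 and 61.6 CPM by library against 13.7 and 12.9, with library 1-1 high on 15 UMIs, and Foxm1 at 12.5, 38.5, 50.1 and 58.7 CPM, on 63 UMIs beside 7 in all other clusters. Among 20 brakes on the cell cycle, 2 of 10 measured genes were higher, both inhibitors of the cyclin D kinases: Cdkn2c (76.9 and 114 CPM against 12.6 and 13.2) and Cdkn2d (108 and 126 against 36.3 and 44.0). Cdkn1a (p21) stood at 678 and 774 CPM against 576 and 705, and the median log2 fold of the 20 was 0.087. The growth factor receptors had no higher gene among 12 measured. Csf1r was at 476, 422, 584 and 329 CPM by library against 433 and 413, so its libraries lay on both sides of the others' mean. The granulocyte factor receptor Csf3r was lower (29.1 and 25.8 CPM against 72.9 and 97.1), as was the ligand gene Csf1 (19.8 and 5.17 CPM against 61.1 and 63.9).

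**Figure D2:**
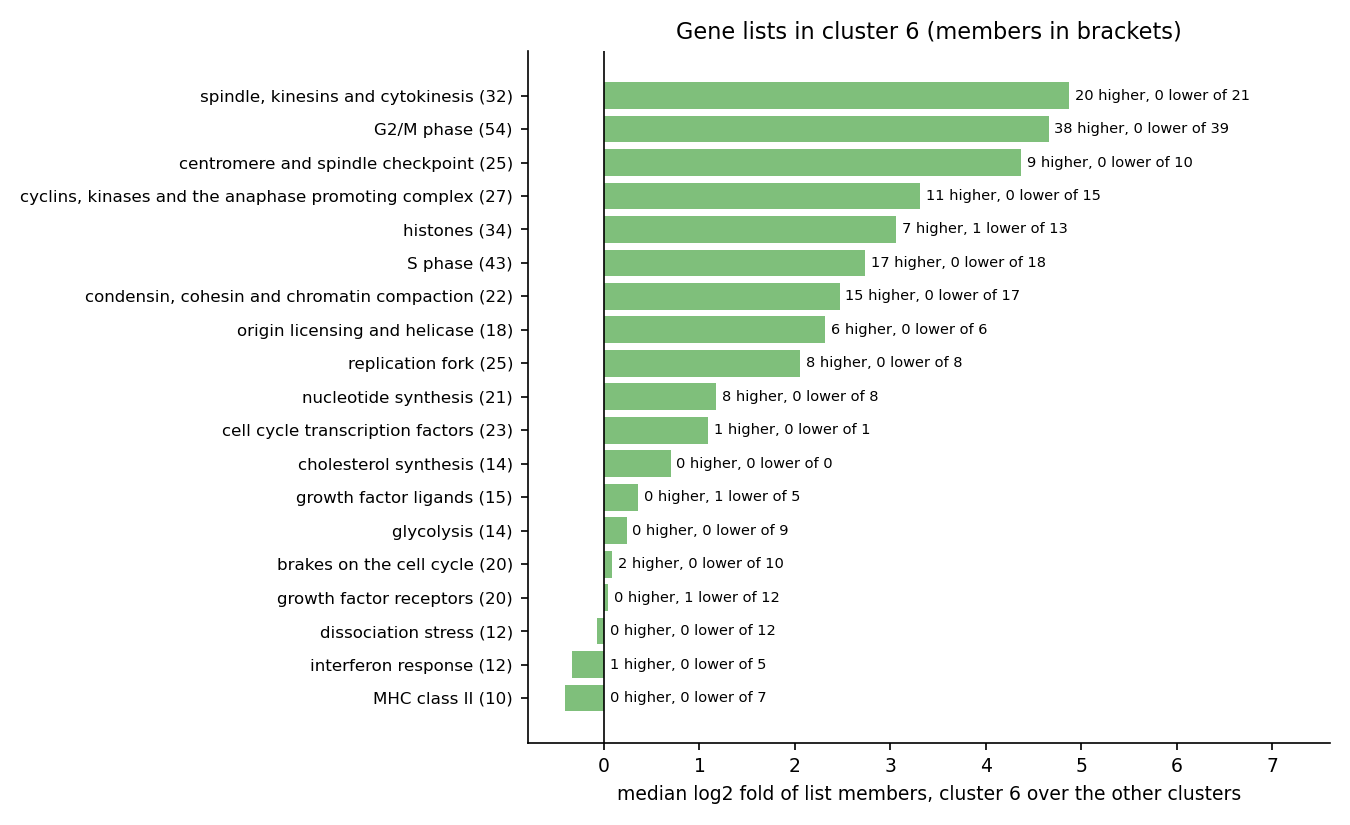
Median log2 fold of all table members of each function list, cluster 6 over the mean of the other 13 clusters (bars), with members in brackets and the numbers higher and lower among genes reaching 50 CPM beside each bar. The spindle list (4.87) and the G2/M list (4.65) lead, S phase stands at 2.73, and growth factor receptors (0.042) and brakes (0.087) lie near 0.

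Lists that describe metabolism and immune function mostly had no gene beyond 2-fold. None of the 9 measured glycolysis genes, 7 MHC class II genes and 12 dissociation stress genes was called in either direction. In the interferon list 1 of 5 was higher, the chemokine gene Cxcl10 (87.8, 281, 192 and 384 CPM by library against 116 and 110). Its level was not particular to cluster 6, since cluster 2 stood at 341 CPM, beside 263 and 305 CPM in replicates 1 and 2 of cluster 6. The summed stress list ran from 7585 CPM in library 1-1 to 21605 in 2-1, against 17404 and 20787 in the others. Of the 10 lowest genes, several mark cells held in other clusters: Gpnmb of foamy macrophages (9.32 and 5.17 CPM against 190 and 155), and Ccr7 and Fscn1 of mature dendritic cells (26.8 and 0 CPM against 430 and 429 for Ccr7 and no UMI of Fscn1 against 131 and 94.1 CPM). The haemoglobin gene Hbb-bs was also among the 10 (9.32 and 6.89 CPM against 2432 and 243), and the summed erythroid markers of other clusters differed widely between replicates (27912 and 42.4 CPM in cluster 3). Of the neutrophil markers, all 5 measured were lower, and of the stromal and endothelial markers all 4.

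Which lineages the cells belonged to was read from lineage UMIs in each cell. Macrophage UMIs were those of Adgre1 (F4/80), Csf1r and Fcgr1 (the high-affinity IgG receptor). Lyz2 (lysozyme) was kept apart on the assumption that it is abundant as free RNA, which was not measured. Dendritic UMIs were those of Flt3 (the receptor through which dendritic cells receive their main growth signal), Zbtb46 (a dendritic transcription factor), Cd209a and Xcr1 (receptors of the type 2 and type 1 conventional subsets). T/NK UMIs were those of Cd3e and Cd3d, parts of the T cell receptor complex, and Nkg7, a gene of cytotoxic granules. A cell with at least 2 such UMIs and at least 75% of them from 1 set was placed in that gate, which is a range cut from a count and not a cell type. The same gate placed 94.5%, 93.6% and 96.0% of the cells of clusters 0, 1 and 2 with macrophages and none of clusters 0 to 5, 7 and 8 with T/NK cells. It also placed 79.9% of cluster 5, which had the highest summed monocyte markers, with macrophages. The same holds for 58.5% of cluster 13, 52.7% of cluster 9, 15.2% of cluster 4 and 14.9% of cluster 11. Cells called macrophages by this gate may therefore include monocytes, which it does not set apart. The gate was less complete for dendritic cells. Clusters 4, 11 and 12 had the highest summed markers of type 2, type 1 and mature dendritic cells. The gate placed 50%, 53.2% and 27.3% of their cells with dendritic cells, so dendritic counts given here may be too low.

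The macrophage gate held 92 of the 135 cells (68.1%, 59.6 to 75.9%), with 6, 55, 14 and 17 in libraries 1-1, 1-2, 2-1 and 2-2. Its cells had a median of 10 macrophage UMIs and 32 of Lyz2, and 83 of the 92 held Mki67 or Top2a. The T/NK gate held 10 cells (7.41%, 3.61 to 13.2%; 1, 3, 1 and 5 by library), and 9 of them held Mki67 or Top2a. The dendritic gate held 5 cells (3.70%, 1.21 to 8.43%; 0, 4, 0 and 1), all with Mki67 or Top2a. A further 26 cells (19.3%, 13.0 to 26.9%; 0, 14, 2 and 10) were mixed and 2 had fewer than 2 lineage UMIs. Of the mixed cells, 15 held macrophage and T/NK UMIs, 4 macrophage and dendritic UMIs, and 7 UMIs of all sets. In that order 8, 1 and 4 of them lacked Mki67 and Top2a, so cells with cycling and dendritic UMIs were not limited to the dendritic gate. Without library 1-2 the shares became 64.9% macrophage, 12.3% T/NK and 1.75% dendritic, so the T/NK and dendritic shares depend on that library. Library 2-2 had the lowest macrophage share (51.5%) and the highest T/NK and mixed shares (15.2% and 30.3%).

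The name given to the cluster holds for its cycling markers and for most cells, and goes against part of them. The 10 T/NK-gate cells had a median of 15 T/NK UMIs and between 0 and 15 of Lyz2 and 0 and 1 of the macrophage set. In addition, 33 cells (24.4%, 17.5 to 32.6%) carried both macrophage and T/NK UMIs, beside 0.767% of cells elsewhere. After thinning to 2000 UMIs the shares were 9.70% and 0.360%. Outside cluster 6 such cells were concentrated in a few clusters. Before thinning the share was 7.53% in cluster 9, 7.79% in cluster 10, 4.26% in cluster 11 and 4.88% in cluster 13. It was at most 0.552% in each of the remaining clusters. A T/NK UMI of any kind was in 42 cells (31.1%, 23.4 to 39.6%) against 0.872% elsewhere, or 20.1% against 0.405% after thinning. Among other clusters the share before thinning was highest in cluster 10, at 11.7%. Cd3e had 47 UMIs in 27 cells of cluster 6 and 4 UMIs in all other cells of the table. Nkg7 was at 326, 82.2, 45.9 and 285 CPM by library against 12.8 and 22.1, with libraries 1-1 and 2-2 high. Cd3d was at 62.7, 50.1, 91.8 and 129 CPM, and Cd3g at 138, 50.1, 66.8 and 217 CPM. Since cells were kept before deposit as clusters with macrophage or dendritic markers, these counts say nothing of how many lymphocytes the aorta held.

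Cells without Mki67 and Top2a more often held T/NK UMIs than cells with them. They numbered 23 (1, 12, 3 and 7 by library) beside 112 with either gene, and their median depth was no lower (10874 against 9350 UMIs). A T/NK UMI was in 19 of the 23 (82.6%, 61.2 to 95.05%) and in 23 of the 112 (20.5%, 13.5 to 29.2%). Both macrophage and T/NK UMIs were in 18 of 23 (78.3%, 56.3 to 92.5%) and in 15 of 112 (13.4%, 7.69 to 21.1%). By library, the cells without cycling UMIs that held a T/NK UMI were 0 of 1, 10 of 12, 2 of 3 and 7 of 7, against 2 of 6, 11 of 66, 2 of 14 and 8 of 26 among those with. The larger share among cells without Mki67 and Top2a was thus seen in 1-2, 2-1 and 2-2 and not in the single such cell of 1-1. Summed macrophage UMIs were alike in both sets, at 932 CPM without and 918 with. T cell markers summed to 616 CPM without, 370 with, and 48.2 in the 83 macrophage-gate cells with Mki67 or Top2a. The sum of NK cell markers went the other way, with 199 CPM without and 369 with. Gzma gave 0 of the 55 and 190 of the 429 UMIs, and 188 of the 190 were in 2 cells. Nkg7 did not follow the sum: it was in 10 of the 23 cells (49 UMIs) and in 14 of the 112 (149 UMIs). The remaining members had at most 2 UMIs each in the 23 cells. The list made for type 2 innate lymphoid cells summed to 961, 222 and 201 CPM. Of its 265 UMIs in the 23 cells, 113 were of the growth factor gene Areg (62 of them in 1 cell), 56 of Il7r, 53 of Rora and 5 of Gata3, and the list is not particular to lymphoid cells here, since cluster 5, with monocyte markers, stood at 387 CPM. Neutrophil markers summed to 652, 57.6 and 73.5 CPM, but 163 of the 180 UMIs in the 23 cells were in 1 cell. Whether 2 cells shared a droplet was not tested, since no doublet caller was run on a table that holds only part of each library.

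**Figure D3:**
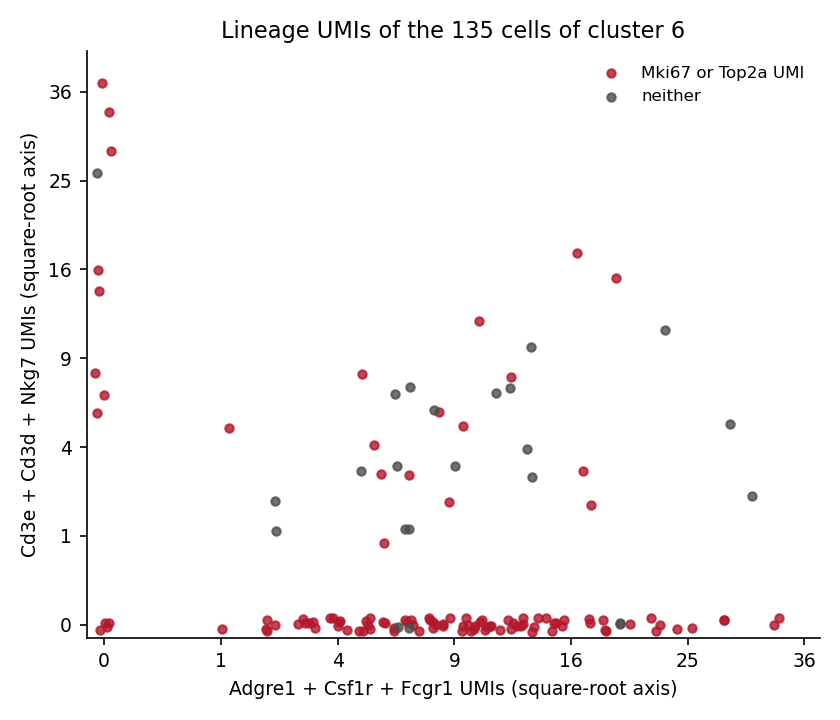
UMIs of Adgre1, Csf1r and Fcgr1 against UMIs of Cd3e, Cd3d and Nkg7 in each of the 135 cells (square-root axes, points moved slightly at random to separate them), coloured by whether the cell held Mki67 or Top2a. Most of the 112 cells with either gene lie along the bottom at 0 T/NK UMIs, the T/NK-gate cells stand at the left, and 18 of the 23 cells with neither gene carry UMIs of both sets.

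The share of a cell's UMIs that fell on the S and G2/M lists gave a graded measure, to which Mki67 and Top2a also contribute. Its median was 1.26% over the 135 cells (0.0931 to 3.99%), with library medians of 0.853%, 1.41%, 1.07% and 1.18%, and the medians of the other clusters lay between 0 and 0.166%. By gate the median was 1.28% in macrophages, 1.62% in the 5 dendritic cells, 2.60% in the 10 T/NK cells and 0.293% in mixed cells. Of the 135 cells, 107 lay above 0.349%, the 95th percentile of all other cells, and 28 lay at or below it. Of these 28, 22 held a T/NK UMI. Another count, that 21 of the 28 lacked Mki67 and Top2a, is partly fixed by construction, since both genes are members of the G2/M list.

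**Figure D4:**
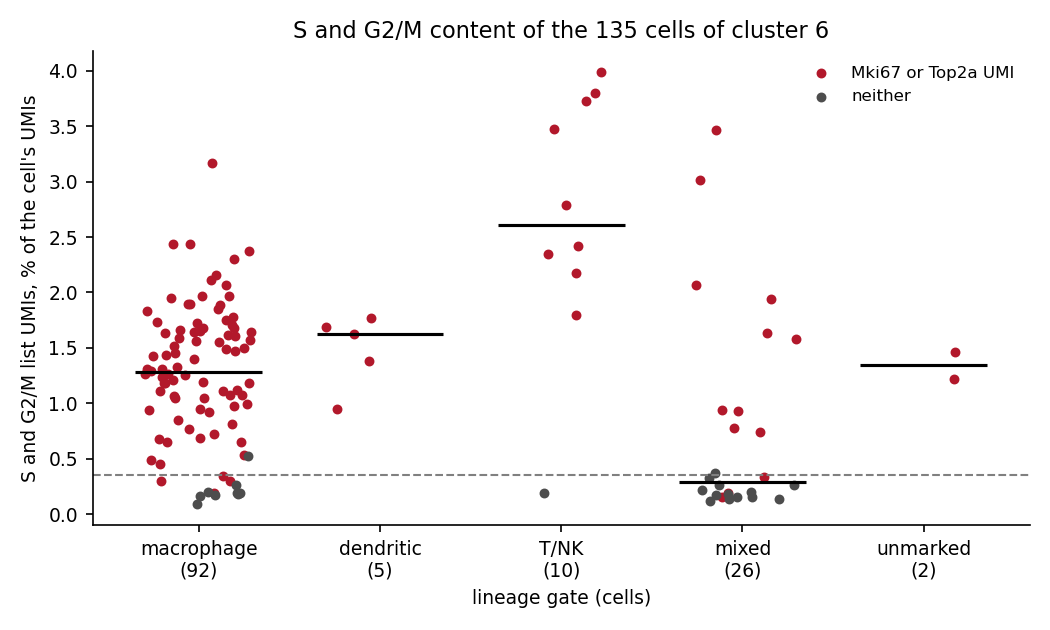
Percent of each cell's UMIs in the S and G2/M lists for the 135 cells of cluster 6, by lineage gate, with medians as lines and the 95th percentile of all other cells (0.349%) dashed; red cells held Mki67 or Top2a and grey cells neither. The T/NK gate has the highest median (2.60%), and grey cells gather below the dashed line, mainly in the mixed gate.

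The balance of the lists leaned to G2 and mitosis. A median of 0.919% of a cell's UMIs fell on the G2/M list and 0.191% on the S list, and 118 cells had more G2/M than S UMIs, 14 the reverse and 3 equal numbers. In 93 cells G2/M UMIs were at least 2 times S UMIs, and in none were S UMIs 2 times G2/M. The G2/M list has more genes and higher counts, so the balance orders the cells and does not date them. All 14 cells with more S UMIs were in the macrophage gate (14 of 92, 15.2%), and they made up 4 of 7, 3 of 78, 2 of 17 and 5 of 33 cells by library. Library 1-1, high for Mcm3, Mcm5, Lig1 and Tk1 and low for Ube2c and Cdk1, thus also had the largest part of its cells on the S side, on 7 cells. T/NK-gate cells had medians of 0.533% (S) and 2.22% (G2/M), and dendritic-gate cells of 0.121% and 1.26%.

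Mki67 and Top2a counts per cell differed between gates, with no test of the difference, on median depths of 9272.5 UMIs in the macrophage gate, 11028 in the dendritic gate and 6730.5 in the T/NK gate. Macrophage-gate cells had Mki67 in 81 of 92 (median 6 UMIs) and a median of 5 of Top2a. The 5 dendritic-gate cells had 14, 10, 14, 15 and 6 UMIs of Mki67 and 6, 9, 4, 11 and 5 of Top2a. The T/NK-gate cells had medians of 12 and 9, and mixed cells of 0 and 0. Counted over the whole series, cells of cluster 6 with Mki67 or Top2a made up 83 of 1981 macrophage-gate cells (4.19%, 3.35 to 5.17%), 5 of 195 dendritic-gate cells (2.56%, 0.838 to 5.88%) and 9 of 14 T/NK-gate cells (64.3%, 35.1 to 87.2%). The macrophage and dendritic intervals overlap. The share for macrophages was 3.16%, 5.95%, 3.45% and 2.61% by library, and for dendritic cells 0 of 15, 4 of 90, 0 of 32 and 1 of 58. The T/NK share describes which such cells stayed in the myeloid table.

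The few dendritic and lymphoid cells differed among themselves. Of the 5 dendritic-gate cells, 4 carried Cd209a (6, 4, 6 and 31 UMIs), and the other carried 4 UMIs of Xcr1 and 7 of Clec9a, a receptor of the type 1 subset. Their Cd74 (invariant chain of MHC class II) counts were 227, 193, 151, 362 and, in the Xcr1 cell, 157 UMIs. The following lymphoid genes were picked after their values were seen. Dntt, the polymerase that diversifies receptor genes in immature lymphocytes, had 51 UMIs in 6 cells of cluster 6 and Rag1, a recombinase of the same stage, 17 UMIs in 6 cells. In the T/NK gate, 1 cell of 2-1 held 15 UMIs of Dntt, 2 of Rag1 and 18 of Cd8a, and 1 cell of 2-2 held 14, 8 and 9. A cell of 1-2 and a cell of 2-2 had 7 and 38 UMIs of Nkg7 and none of Cd3e, Cd3d and Cd3g. Gzma, a granzyme of cytotoxic cells, had 190 UMIs, of which 188 were in 2 cells. The single T/NK-gate cell without Mki67 and Top2a, from 2-2, also held 3 UMIs of Xcr1, 4 of Clec9a, 3 of Flt3 and 230 of Cd74.

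The T/NK markers bear on part of the gene list given above. When the comparison was repeated with only the 83 macrophage-gate cells holding Mki67 or Top2a, 223 genes were higher and 88 lower, and 168 of the 185 higher genes and 63 of the 72 lower genes were shared. Of the 104 cell cycle genes 102 remained higher, of the 81 others 66, and of the 3 T and NK markers (Cd3d, Cd3g and Nkg7) 0. These outcomes follow in part from how the cells were chosen. The gate itself limits Cd3d and Nkg7, and with them genes of the same cells such as Cd3g. Choosing cells that hold Mki67 or Top2a favours cell cycle genes. Ets1, Ms4a4b, Satb1 and Rhoh, named because they stood out among the 81, were at 20.5, 14.5, 14.5 and 39.7 CPM in the 83 macrophages and at 476, 692, 374 and 556 CPM in the 10 T/NK-gate cells. Ezh2, the Polycomb methyltransferase, was alike in this respect to the cell cycle genes, at 206 CPM in the macrophages and 386 in the T/NK-gate cells. Cx3cr1, the fractalkine receptor, was at 270 CPM in the macrophages and had no UMI in the T/NK-gate cells, and Cxcl10 stood at 437 and 249.6 CPM.

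The 83 macrophage-gate cells with Mki67 or Top2a (5, 49, 12 and 17 by library; 830271 UMIs) were then set beside the other macrophage clusters. With all cell cycle genes left out, their log2 CPM over 4955 genes correlated most with cluster 1 in both replicates (Pearson 0.944 and 0.928, Spearman 0.901 and 0.878, across genes, which are not independent replicates). The next values were 0.900 for cluster 5 in replicate 1 and 0.895 for cluster 2 in replicate 2. The points of each comparison share libraries. Cluster 1 is the macrophage cluster with Cx3cr1 and Cd72, cluster 0 the one with resident-macrophage genes such as Lyve1.

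Single genes placed the cycling macrophages beside cluster 1 in some respects and beside cluster 0 in others. Values are means over the 2 biological replicates ± SD. Cx3cr1 was at 269 CPM ± 10.1, beside 111 in cluster 0 and 286 in cluster 1. Ccr2, the chemokine receptor of monocytes and their progeny, was at 348 CPM ± 1.63, beside 73.0 and 414. Lyve1, a hyaluronan receptor of resident macrophages, was at 96.8 CPM ± 53.8, beside 771 and 15.4. These 3 genes lay closer to cluster 1 than to cluster 0. Trem2, a lipid-sensing receptor, was at 304 CPM ± 34.7, beside 279 and 670, and Spp1 (osteopontin) at 380 CPM ± 213, beside 67.1 and 943. The class II gene H2-Aa was at 3480 CPM ± 366, beside 3399 and 8018, and Cd74 at 7944 CPM ± 6.85, beside 8567 and 18760. For Trem2, H2-Aa and Cd74 the cycling macrophages were thus nearer to cluster 0 than to cluster 1. Lyz2 was below both clusters, at 4630 CPM ± 646 against 13338 and 10377. Lyz2 counts may include those of its near-identical neighbour Lyz1.

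Summed lists extended this to groups of genes. Resident genes summed to 2669 CPM ± 349 in the cycling macrophages, 10278 ± 893 in cluster 0 and 1221 ± 187 in cluster 1. Foamy macrophage genes summed to 2456 CPM ± 584, beside 1109 ± 157 in cluster 0, 5464 ± 327 in cluster 1 and 43695 ± 716 in the foamy cluster 8. MHC class II genes summed to 20244 CPM ± 561, beside 20438 ± 1318 and 47821 ± 2681. The cycling macrophages were thus above cluster 1 and below cluster 0 for resident genes, below cluster 1 and above cluster 0 for foamy genes, and level with cluster 0 for class II. Glycolysis genes summed to 3007 CPM ± 87.6, beside 2247 ± 190 in cluster 1, and brakes on the cycle to 4508 ± 99.5, beside 5490 ± 65.8 in cluster 1.

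**Figure D5:**
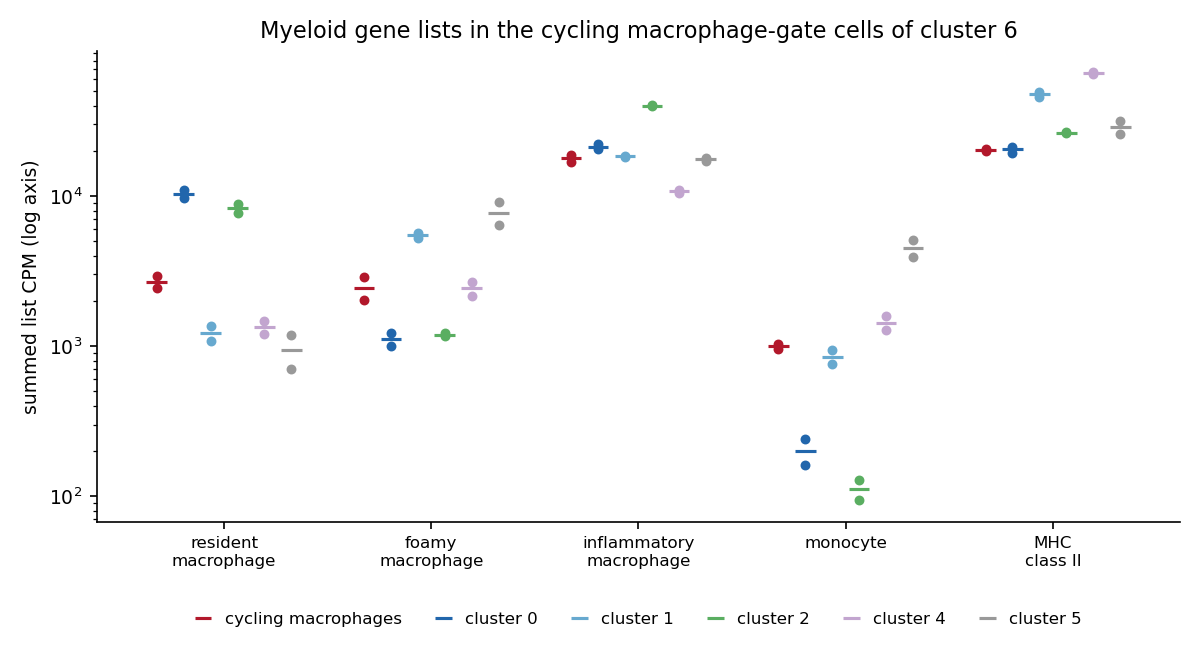
Summed CPM (log axis) of 5 myeloid gene lists in the 83 macrophage-gate cells of cluster 6 with Mki67 or Top2a and in clusters 0, 1, 2, 4 and 5, with points for the 2 biological replicates and a line at their mean. The cycling macrophages lie between clusters 0 and 1 for resident (2669 CPM) and foamy genes (2456 CPM), and beside cluster 0 for MHC class II (20244 CPM).

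Cell by cell, the cycling macrophages differed in the marker genes they carried. At least 3 UMIs of Cx3cr1 and Cd72 together were in 62 of the 83 (74.7%, 64.0 to 83.6%), beside 14.5% of cluster 0 and 62.1% of cluster 1. At least 3 of Trem2 and Spp1 were in 53 (63.9%, beside 20.2% and 56.4%), and at least 3 of Ccr2 in 30 (36.1%, beside 5.35% and 31.5%). Lyve1 and Folr2, of resident macrophages, reached 3 UMIs in 18 cells (21.7%, 13.4 to 32.1%), beside 63.6% of cluster 0 and 4.42% of cluster 1. Thus 18 cells carried the resident genes, of which 10 also carried Cx3cr1 or Cd72 at that level, and 13 cells carried neither. These shares are at each cell's own depth, with medians of 9149 UMIs in the cycling macrophages, 4404 in cluster 0 and 5115 in cluster 1, so they are not comparable as rates between the clusters.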

How the data were processed

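Single cells of 4 libraries were analysed from the table of raw UMI counts per gene and cell and the table of cell annotations that the authors deposited. Per the labels' protocols, reads were mapped to mm10 with Cell Ranger 3.0.2, and the submitters' processing notes name Seurat 3.1.1. The deposited annotation gives each cell's library, its cluster and its mitochondrial percent as the authors computed it. Every cell of the table had been kept by the authors, and no further filter on cells was applied. No doublet caller was run, since the table holds only part of each library. The number of columns with values of other samples was 0.

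Counts of the cells of a cluster were summed per biological replicate or library and scaled to 1000000 (CPM). A gene was called higher or lower at a 2-fold difference from the mean of the other 13 clusters in both replicates, among genes with 50 CPM on the higher side, with a floor of 3 counts for a group at 0. Such a comparison carries no test, because clusters were made from the same counts. Lineage gates, thinning to 2000 UMIs and exact (Clopper-Pearson) 95% intervals are described with the results. Likeness between cell groups was computed on log2(CPM + 10). The planned test between dendritic-gate and macrophage-gate cells was not run, since the dendritic gate held 5 cells, under 5 in each replicate. The folding and gating steps were tested on simulated data.

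The cluster, the gene lists and the named genes were chosen with earlier results of these data known. Genes named are the cycling and gate markers, the 15 highest and 10 lowest by the smaller replicate fold, up to 6 members of each function list and up to 4 of each marker list by CPM, and genes that the text says were picked after their values were seen. Of 542 listed symbols, 5 were matched by RefSeq synonyms and 8 were not found. Gene positions come from GENCODE M21 (GRCm38) and promoter sequences from RefSeq (GRCm38.p6). Alternatives covered the CPM minimum, the reference clusters, the gate, the thinning and leaving out each library. Python 3.11.15, numpy 2.4.6, pandas 2.3.3, scipy 1.17.1 and matplotlib 3.10.9 were used.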

Additional observations from a re-analysis of the deposited data

Results flagged for a closer look

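The share of cells in cluster 6 was 6.34% in library 1-2, beside 2.97%, 3.09% and 3.35% in libraries 1-1, 2-1 and 2-2, and its gap to the nearest library exceeded the 95% limit of Dixon's test for 4 values. Chance alone gives such a gap in about 1 in 20 groups. The library also has the most cells (1231) and UMIs (5954716), and their part in the difference was not tested.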

How the results depend on the processing

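The number of genes higher in cluster 6 (185) became 388 with a minimum of 20 CPM and 91 with 100 CPM, and the number lower (72) became 142 and 38, since the minimum sets how many genes enter. Leaving out each library in turn gave 177 to 202 higher and 69 to 82 lower. The share of cells in the macrophage gate (68.1%) became 86.7% with Lyz2 counted in the gate and 49.3% after thinning to 2000 UMIs, where unmarked cells went from 2 to 45. The dendritic share (3.70%) became 0 with Lyz2 counted. Leaving out a library gave 64.9 to 73.5% macrophage, 1.75 to 4.24% dendritic, 4.90 to 12.3% T/NK and 15.7 to 21.1% mixed. The mixed share (19.3%) became 11.1% and 31.1% with gate shares of 60% and 90%, 8.21% after thinning and 6.67% with Lyz2 counted, moves below the SD between libraries. The share of cells with Mki67 or Top2a at 2000 UMIs (74.6%) was 83.0% without thinning and 61.5% at 1000 UMIs, which follows from the depth kept. Chosen after seeing the data, the counts were 203 and 80 without cells with a T/NK UMI, and in the 112 cells with Mki67 or Top2a the gates held 74.1% macrophage, 4.46% dendritic, 8.04% T/NK and 11.6% mixed. The planned comparison of dendritic-gate with macrophage-gate cells, with and without a replicate block, and its other alternatives were not run, since the dendritic gate holds 4 cells in replicate 1 and 1 in replicate 2, under the minimum set for it. Library 1-1 contributes 7 cells, which limits its precision.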
